A study of Arabidopsis thaliana with 10 samples.

Results

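The genes described here are 10 cold- and ABA-responsive genes of Arabidopsis thaliana, taken by locus identifier from the 33518 genes that each of the 3 deposited tables lists. They are COR47 (AT1G20440), ERD10 (AT1G20450), ERD14 (AT1G76180), RAB18 (AT5G66400), COR15A (AT2G42540), COR15B (AT2G42530), KIN1 (AT5G15960), KIN2 (AT5G15970), RD29A (AT5G52310) and RD29B (AT5G52300). RNA from hypocotyls of seedlings kept in darkness for 4.5 days was sequenced in 5 groups of 2 libraries. All 5 groups carried 1 µM PAC (paclobutrazol), a blocker of gibberellin synthesis, and were collected 12 hours after a brief soak in GA3 or mock solution. Wild-type Col-0 was grown either without or with 2 µM PPZ (propiconazole), a blocker of brassinosteroid synthesis, and each of those cultures received mock solution or 10 µM GA3, a bioactive gibberellin. The fifth group was the bzr1-1D mutant in Col-0, on PAC and PPZ with mock solution. bzr1-1D is 1 dominant allele that stabilizes the transcription factor BZR1 through an amino acid change, so the BZR1 transcript does not check the label, and no bzr1-1D group without PPZ or with GA3 was analysed here.

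Dehydrins and COR proteins are very hydrophilic proteins that accumulate in plant cells losing water or exposed to cold, and many of them protect membranes or other proteins. Their genes are textbook targets of 2 routes, the CBF/DREB factors of the cold and drought response, which bind the CRT/DRE element, and the ABA route, in which receptors inhibit PP2C phosphatases, SnRK2 kinases are released and ABF factors bind the ABRE element. Brassinosteroids act through BZR1 and its relatives, which bind E-boxes such as the G-box and the BRRE, and gibberellins act by removing DELLA proteins, which can bind BZR1.

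Most promoters of the members carry the core letters of the CRT/DRE and ABRE elements these routes are known for, and 1 match per member is shown. The 500 bases before the start codon were searched on both strands in the RefSeq annotation of TAIR10.1. The CRT/DRE core CCGAC was found in 9 of 10 members, all but ERD14, and in 23.4% of 27443 protein-coding genes. The ABRE core ACGTG was found in 9 of 10 members, all but ERD10, and in 34.9% of those genes. Below, 1 match of each member is given 5′ to 3′ on the strand of the gene, in capitals; COR15A has 2 CRT/DRE matches and RD29A has 4, of which 1 each is printed, and the 3 in ERD10 overlap.
COR47, chr1:7085915-7085944, minus strand: gatattcatctaCCGACttcaagaaataag
ERD10, chr1:7089368-7089397, minus strand: gatattcatccaCCGACCGACCGACgtaaa
COR15A, chr2:17712215-17712244, minus strand: acaatttcatggCCGACctgcttttttttt
COR15B, chr2:17710121-17710150, minus strand: acaacttgatggCCGACctcttttttcttt
KIN1, chr5:5209802-5209831, plus strand: gataaatagctaCCGACataaggcaaaact
KIN2, chr5:5211769-5211798, plus strand: aataaaaagctaCCGACataaggcaaaaat
RD29A, chr5:21240672-21240701, plus strand: aaagatatactaCCGACatgagttccaaaa
RD29B, chr5:21236873-21236902, plus strand: aataaacgtggaCCGACtaaaactaaataa
RAB18, chr5:26519342-26519371, minus strand: cgaaacaccacgCCGACattttctgctgct
ERD14, the ABRE core at chr1:28587914-28587943, minus strand: aaatgataattaACGTGgggacgaaggaga

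In 3 of the 4 pairs of neighbouring genes, COR47 with ERD10, COR15A with COR15B and KIN1 with KIN2, the letters before the core shown were alike. Those shown for the neighbours RD29A and RD29B were not. Another RD29A match, at chr5:21240565-21240594 and not printed, did have letters before the core like those of RD29B. The G-box CACGTG, which holds ACGTG on both strands and so counts as 2 ABRE cores, was found in 4 of 10 members, COR15A, COR15B, KIN1 and KIN2, against 9.34% of genes. Of the BRRE letters, CGTGTG was found in 4 of 10 members, ERD10, RAB18, COR15B and RD29A, against 9.94% of genes. CGTGCG was found in 0 of 10 members, against 2.85% of genes. These are matches of letters in 1 window and show no binding.

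Of the 10 members, 8 had reads in all 10 libraries, while COR15A and COR15B were at or near the limit of detection. COR15A, which encodes a chloroplast protein that protects membranes in freezing, had 8 reads in all, and 6 libraries were at 0. COR15B, its neighbour and near relative, had 5 reads, and 6 libraries were at 0. Library totals summed to 136901649 gene reads, and a library at 0 allows up to 3 reads, for counting error alone. Neither gene reached the mean of 10 normalized reads needed for a test, so 8 of the 10 members were tested in each comparison.

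Levels were compared between members as normalized reads per kilobase of RefSeq exon, averaged over the 5 groups. ERD14, an acidic dehydrin, was highest at 8000.2 and COR47, also an acidic dehydrin, followed at 2822. ERD10, the third acidic dehydrin, stood at 633, KIN2 at 530, RD29B at 448, RD29A at 227, RAB18 at 201 and KIN1 at 74.4 per kilobase. ERD14 and then COR47 led in each group, but the ranges over the 5 groups overlapped for each neighbouring pair in this order from ERD14 down to RAB18. The members below COR47 also changed places: on PAC and PPZ, KIN2 was at 491 and ERD10 at 318 per kilobase. RAB18 was above RD29A on PAC, at 157 and 126 per kilobase, and below it in bzr1-1D, at 259 and 438. COR15A averaged 0.455 and COR15B 0.265 per kilobase, and their ranges overlapped. KIN1 and KIN2 encode small, similar proteins of unknown biochemical role, and their exons share 10 windows of 50 bases (1.28% of those in KIN1), so reads inside them cannot be placed on 1 gene by sequence. No other pair of members shares such a window.

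The treatments showed in the hormone feedback genes. GA3OX1, a gibberellin synthesis gene repressed by active gibberellin, fell by 1.79 on the log2 scale with GA3 on PAC and by 1.86 with GA3 on PAC and PPZ. BR6OX2, a brassinosteroid synthesis gene under feedback from BZR1, was 1.69 higher on PPZ and fell by 3.47 in bzr1-1D on PAC and PPZ. Gene reads per library ranged from 8080550 to 16546607. The pairs differed in spread: between the 2 libraries of wild type on PAC the log2 difference had a standard deviation of 0.26 over genes, against 0.14 to 0.19 in the other pairs. In bulk RNA, fewer cells of a type and less RNA per cell cannot be told apart. No gene list defines a hypocotyl; of the root markers the root hair gene EXPA7 had 2.73 to 35.0 normalized reads and the endodermis gene CASP1 had 211 to 1219.

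**Figure D1:**
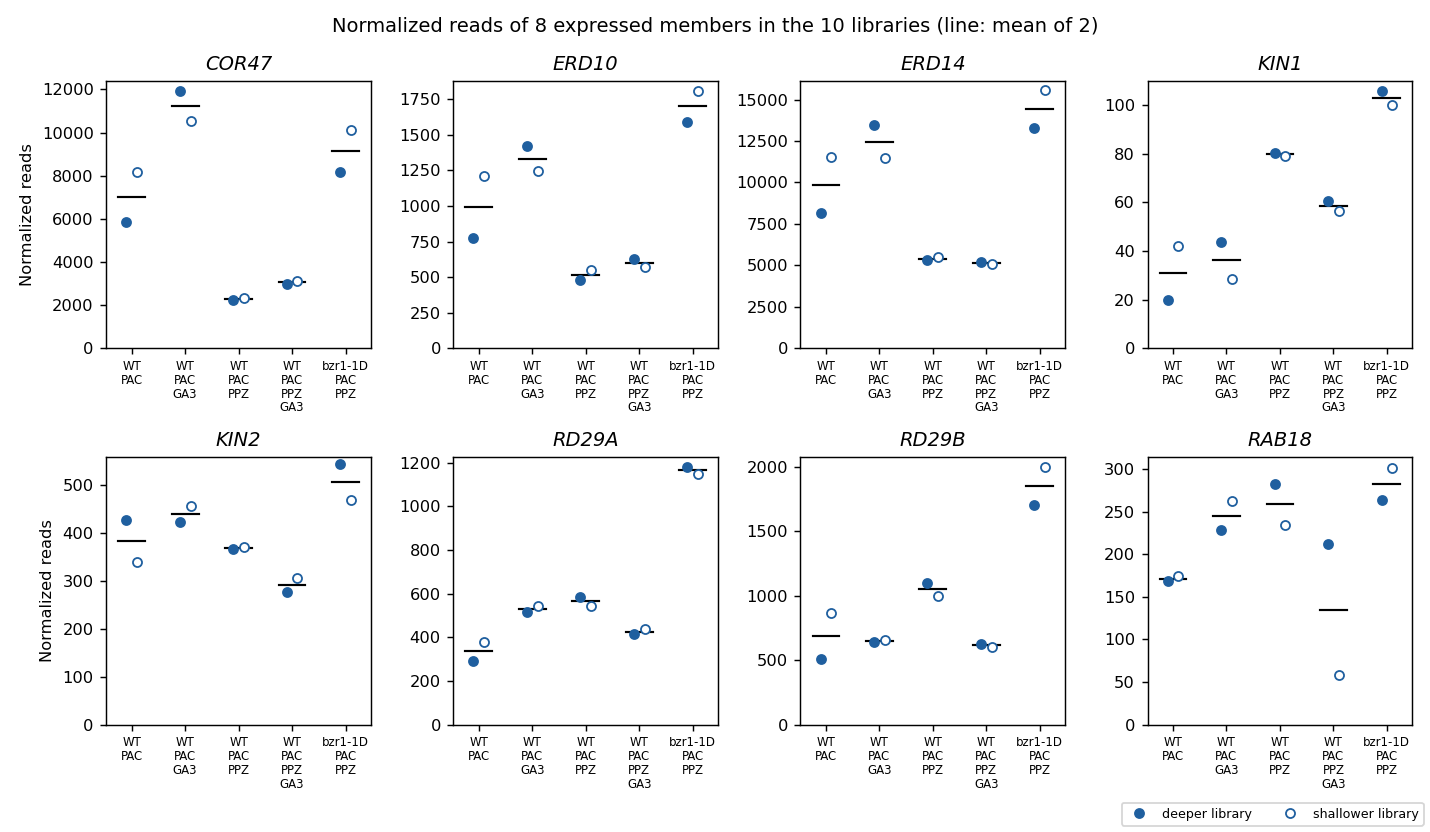
Normalized reads (vertical axis, linear, from 0) of the 8 expressed members in each library of the 5 groups (horizontal axis). Filled and open points are the deeper and shallower library of a group and the line is their mean; COR47, ERD10 and ERD14 are lowest in the groups of wild type on PPZ, and RD29A and RD29B are highest in bzr1-1D.

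Wild type on PAC with and without PPZ shows how the members' levels differed when PPZ was added. The 3 acidic dehydrins fell, RD29A, RD29B, KIN1 and the dehydrin RAB18 rose, and KIN2 did not pass. COR47 had 5860 and 8172 normalized reads on PAC alone, and 2228 and 2332 once PPZ was added. The groups did not overlap, and COR47 was 3.09-fold lower with PPZ (log2 -1.63 ± 0.15, SE, n = 2 libraries per group; limma-voom adjusted p = 0.000105). ERD10 went from 777 and 1212 to 481 and 551 normalized reads and ERD14 from 8160 and 11521 to 5312 and 5500. Both PPZ libraries lay below both PAC libraries for each gene, and the log2 changes were -0.90 ± 0.18 and -0.87 ± 0.16 (limma adjusted p = 0.00699 and 0.00446).

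KIN1 moved the other way, from 19.8 and 41.9 normalized reads on PAC to 80.4 and 79.3 with PPZ. The 3.01-fold rise (log2 1.59 ± 0.30, limma adjusted p = 0.00538) was the largest among the members that rose, at the lowest expression of the 8. RD29A, a hydrophilic protein gene responsive to cold, drought and ABA, had 290 and 381 normalized reads on PAC and 584 and 545 with PPZ. RD29B, its neighbour, which is known for responding mainly to ABA, had 511 and 870 on PAC and 1099 and 1000 with PPZ. Neither gene's groups overlapped, and their log2 changes were 0.80 ± 0.13 and 0.69 ± 0.20 (limma adjusted p = 0.00262 and 0.0332). RAB18, the glycine-rich dehydrin used as a marker of ABA response, had 168 and 175 on PAC and 283 and 234 with PPZ (log2 0.59 ± 0.14, limma adjusted p = 0.0156). KIN2 was at 427 and 339 on PAC and 366 and 370 with PPZ, and did not pass the test (log2 -0.08 ± 0.12, limma adjusted p = 0.7).

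In all, 4 members rose and 3 fell of 8 tested, where 23.7% of 19490 tested genes were called, 11.6% higher and 12.1% lower. The members' median log2 change was 0.26, beside -0.0050 over all genes. The calls of RAB18 (adjusted p = 0.187) and RD29B (adjusted p = 0.0606) were lost without the deeper library on PAC and PPZ. The 10 seed reserve markers, storage protein and oil body genes, all rose with PPZ, and the summed level of the 9 with reads in all libraries was 9275 and 12780 normalized reads on PAC and 22028 and 19598 with PPZ. Of 7 root markers tested 6 rose and CASP1 fell. Whether these genes contribute to the members' changes was not tested.

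With GA3 present in both groups, PPZ was followed by a fall in more of the members. COR47 had 11907 and 10519 normalized reads with GA3 on PAC and 3003 and 3131 with GA3 on PAC and PPZ, 3.65-fold lower (log2 -1.87 ± 0.07, limma adjusted p = 2.15e-09). ERD14 fell by 1.27 ± 0.07 and ERD10 by 1.15 ± 0.08 on the log2 scale (limma adjusted p = 7.15e-08 and 4.31e-07), again with no overlap between groups. KIN2 fell by 0.59 ± 0.09 (limma adjusted p = 0.000205), from 422 and 455 normalized reads to 276 and 306. RD29A fell by 0.31 ± 0.08 (limma adjusted p = 0.00635), while RD29B did not pass (log2 -0.07 ± 0.07, adjusted p = 0.41).

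KIN1 was the 1 member higher with PPZ in this setting, from 43.9 and 28.6 to 60.6 and 56.6 normalized reads (log2 0.66 ± 0.24, limma adjusted p = 0.0364). RAB18 fell from 228 and 263 to 212 and 57.7 normalized reads (log2 -1.0 ± 0.36, limma adjusted p = 0.036), and the value was -0.19 (adjusted p = 0.28) without the shallower library of GA3 on PAC and PPZ. Of 8 tested, 1 member rose and 6 fell, where 51.9% of 19482 tested genes were called, 26.2% higher and 25.7% lower. Scaling libraries by their total reads moved the median of all genes by 0.16 and left the RD29A change at -0.15 (adjusted p = 0.123) and that of RAB18 at -0.85 (adjusted p = 0.0823). The calls of KIN1 were also lost without the shallower library of GA3 on PAC (log2 0.42, adjusted p = 0.181) and without the deeper library of GA3 on PAC and PPZ (adjusted p = 0.103). That last library also decided the RD29A call (log2 -0.27 without it, adjusted p = 0.0565). RAB18 was likewise not called without either library of GA3 on PAC (adjusted p = 0.075 and 0.0991). The seed reserve sum was 2322 and 2000 normalized reads with GA3 on PAC, and it was 6217 and 3742 when PPZ was present too. Among the seed reserve markers 8 of 9 tested rose. Of 7 root markers tested 6 rose, and CASP1 fell from 1219 and 981 to 252 and 211 normalized reads; 1 of 3 guard cell markers rose. The part of these genes in the members' changes was not tested.

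The next comparison sets bzr1-1D against wild type, both on PAC and PPZ with mock solution. Of the 8 tested members 6 rose and the other 2 did not pass, and the acidic dehydrins moved most. COR47 had 2228 and 2332 normalized reads in wild type and 8194 and 10128 in bzr1-1D, 4.0-fold higher (log2 2.00 ± 0.10, limma adjusted p = 4.75e-08). ERD10 had 481 and 551 in wild type and 1588 and 1811 in bzr1-1D (log2 1.72 ± 0.09, limma adjusted p = 1.06e-07). ERD14 had 5312 and 5500 in wild type and 13297 and 15589 in bzr1-1D (log2 1.41 ± 0.09, limma adjusted p = 2.72e-07). Every bzr1-1D library lay above every wild-type library for these 3 genes.

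RD29A, already higher on PPZ than without it, had 584 and 545 normalized reads in wild type and 1181 and 1149 in bzr1-1D, 2.06-fold higher (log2 1.04 ± 0.08, limma adjusted p = 1.01e-06). RD29B had 1099 and 1000 in wild type and 1707 and 2000 in bzr1-1D (log2 0.82 ± 0.09, limma adjusted p = 1.92e-05). KIN2 had 366 and 370 in wild type and 544 and 470 in bzr1-1D (log2 0.46 ± 0.10, limma adjusted p = 0.00194). KIN1 (log2 0.36 ± 0.15, adjusted p = 0.0658) and RAB18 (log2 0.13 ± 0.12, adjusted p = 0.408) did not pass the limma test. KIN1 was at 106 and 99.9 normalized reads in bzr1-1D, outside the range in wild type, and RAB18 at 263 and 302, overlapping the 283 and 234 in wild type.

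In this comparison 47.1% of 19668 tested genes were called, 24.2% higher and 22.9% lower, and the members' median log2 change was 0.93 beside 0.01 over all genes. The authors' deposited table called 6 members by DESeq, COR47, ERD10, ERD14, KIN2, RD29A and RD29B, where it called 29.6% of genes. Each of these 6 was also called in all 8 other limma settings, and total-read scaling added KIN1 (log2 0.41, adjusted p = 0.0426). Of 9 seed reserve markers tested by limma, 8 fell, against the members, and 1 rose, OLEO2. Their sum was 9669 and 12986 normalized reads in bzr1-1D against 22028 and 19598 in wild type. Most of it was CRA1, at 6164 and 8749 against 16893 and 14574. The authors' DESeq test called only CRA1, CRU2, SESA3 and SESA4 lower. CRU3, another seed reserve marker, is not in the sum, as its reads were not recovered in bzr1-1D. Its deposited means were 14695 in bzr1-1D and 17065 in wild type (DESeq adjusted p = 0.841). All 3 guard cell markers fell, from a sum of 705 and 714 to one of 538 and 455. Of the root markers 6 of 7 fell and CASP1 rose. The authors' DESeq test did not call the falls of the guard cell marker KAT1 and the root marker RHD6 (DESeq adjusted p = 0.105 and 0.130).

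**Figure D2:**
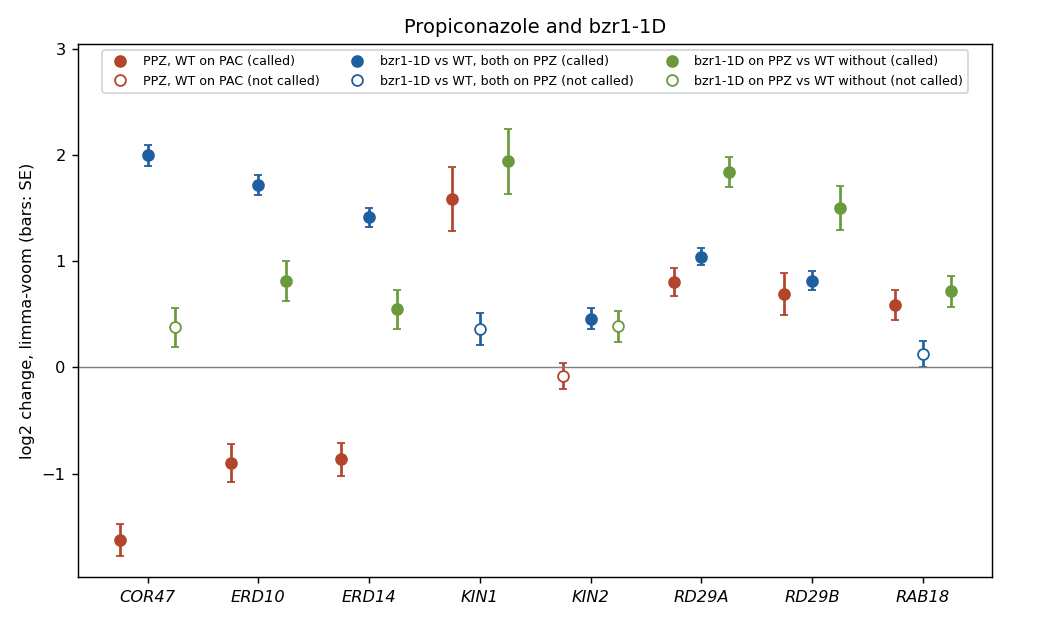
Log2 change (vertical axis) of the 8 tested members (horizontal axis) for PPZ on PAC in wild type, for bzr1-1D against wild type with both inhibitors, and for bzr1-1D with both inhibitors against wild type given PAC alone; bars are standard errors and filled points passed an adjusted p of 0.05. COR47, ERD10 and ERD14 are below 0 for PPZ and above 0 for bzr1-1D, while RD29A and RD29B are above 0 in all 3 comparisons.

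PPZ and bzr1-1D share the wild-type libraries on PAC and PPZ, so their changes are not independent and were set side by side only. A comparison free of that group sets bzr1-1D on both inhibitors against wild type given PAC alone, which differs in both genotype and PPZ. It shares the 2 wild-type libraries on PAC with the PPZ comparison, and these were the pair with the widest spread, so its values too were not sorted by the PPZ response. Here 6 of 8 members were higher and 0 lower, where 31.2% of 19433 genes were called, 15.6% in each direction. The members' median log2 difference was 0.77, beside -0.0016 over all genes.

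The largest of the called differences were those of KIN1, RD29A and RD29B. KIN1 was 3.84-fold higher than in wild type on PAC (log2 1.94 ± 0.30, limma adjusted p = 0.00093). RD29A was 3.58-fold higher (log2 1.84 ± 0.14, limma adjusted p = 1.39e-05) and RD29B 2.83-fold higher (log2 1.5 ± 0.21, limma adjusted p = 0.000466). For these 3 genes both bzr1-1D libraries lay above both libraries on PAC by a wide margin, as with 1181 and 1149 against 290 and 381 normalized reads for RD29A. RAB18 was 1.65-fold higher (log2 0.72 ± 0.15, limma adjusted p = 0.00402).

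Among the acidic dehydrins, ERD10 was 1.76-fold higher in bzr1-1D (log2 0.81 ± 0.18, limma adjusted p = 0.00734). ERD14 was 1.46-fold higher (log2 0.55 ± 0.19, limma adjusted p = 0.0459), a call lost without the deeper library on PAC (log2 0.32, adjusted p = 0.164) or without either bzr1-1D library (adjusted p = 0.0924 and 0.383). COR47 did not pass (log2 0.38 ± 0.18, adjusted p = 0.152), with 8194 and 10128 normalized reads in bzr1-1D and 5860 and 8172 on PAC, but was called without the shallower library on PAC (log2 0.64, adjusted p = 0.000455) and in the limma fit over all 10 libraries (log2 0.39, adjusted p = 0.0414). KIN2 did not pass either (log2 0.39 ± 0.14, adjusted p = 0.0647), and was called without the deeper library on PAC (log2 0.58, adjusted p = 0.00397) and in the limma fit over all 10 libraries (log2 0.38, adjusted p = 0.0191). Total-read scaling moved the median of all genes by 0.13 in this comparison and called KIN2 as well (log2 0.52, adjusted p = 0.017). The seed reserve sum, mostly CRA1 and without CRU3, was 9669 and 12986 in bzr1-1D and 9275 and 12780 on PAC. That sum did not separate these groups, but 4 of its 9 genes were called higher and 0 lower. OLEO2 had 1541 and 1982 normalized reads in bzr1-1D and 521 and 774 on PAC. The deposited means of CRU3 were 14695 in bzr1-1D and 9011 on PAC, and this difference was not tested. Of 3 guard cell markers 2 were lower, with a sum of 538 and 455 in bzr1-1D against 784 and 732 on PAC, and of 5 root markers tested CASP1 was higher (log2 0.44 ± 0.15). Their part in the members' differences was not tested.

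The effect of GA3 was asked first without PPZ. RD29A, COR47 and RAB18 rose and the other 5 tested members did not pass. RD29A had 290 and 381 normalized reads with mock and 515 and 544 with GA3, 1.63-fold higher (log2 0.70 ± 0.14, limma adjusted p = 0.0034), and the groups did not overlap. COR47 had 5860 and 8172 with mock and 11907 and 10519 with GA3 (log2 0.67 ± 0.17, limma adjusted p = 0.0118). RAB18 had 168 and 175 with mock and 228 and 263 with GA3 (log2 0.51 ± 0.14, limma adjusted p = 0.0215). Of 8 tested members 3 were thus higher, where 32.5% of 19191 genes were called, 15.9% higher and 16.6% lower. The members' median log2 change was 0.47, beside 0.05 over all genes.

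Of the members that did not pass, ERD10 (log2 0.47 ± 0.18, adjusted p = 0.065) and ERD14 (log2 0.33 ± 0.17, adjusted p = 0.175) had mock libraries that lay apart, at 777 and 1212 and at 8160 and 11521 normalized reads. KIN1 was at 43.9 and 28.6 normalized reads with GA3, overlapping the 19.8 and 41.9 with mock (log2 0.47 ± 0.38, adjusted p = 0.359). RD29B was at 643 and 657 with GA3, between the mock libraries at 511 and 870 (log2 -0.01 ± 0.19, adjusted p = 0.986). KIN2 had a log2 change of 0.18 ± 0.13 (adjusted p = 0.34). The authors' deposited table called 2 members, RD29A and COR47, where it called 27.2% of genes, and gave RAB18 an adjusted p of 0.432. The COR47 call was lost without the deeper (adjusted p = 0.169) or the shallower (adjusted p = 0.0528) library of GA3 on PAC, and RAB18 was lost without either of these (adjusted p = 0.054 and 0.187) or without the deeper library with mock (adjusted p = 0.0524). The mock pair decided other members: without its shallower library 6 were called, ERD10 (log2 0.78), ERD14 (log2 0.60) and RD29B (log2 0.35) among them, and without its deeper library RD29B was called lower (log2 -0.42, adjusted p = 0.00408) and KIN2 higher (log2 0.36, adjusted p = 0.0478). The limma fit over all 10 libraries also called ERD10 higher (log2 0.49, adjusted p = 0.0275). The seed reserve sum was 2322 and 2000 normalized reads with GA3 against 9275 and 12780 with mock, and 9 of the 10 markers fell. Of 4 root markers tested 2 rose, PRP3 and CASP1, and 1 of 3 guard cell markers, KAT1, rose. The part of these genes in the members' changes was not tested.

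On PAC and PPZ, GA3 was followed by a fall in 4 members and a rise in 2. RD29B had 1099 and 1000 normalized reads with mock and 628 and 604 with GA3, 1.70-fold lower (log2 -0.76 ± 0.07, limma adjusted p = 1.21e-06). RD29A had 584 and 545 with mock and 415 and 438 with GA3 (log2 -0.41 ± 0.07, limma adjusted p = 0.000607). KIN2 had 366 and 370 with mock and 276 and 306 with GA3 (log2 -0.35 ± 0.08, limma adjusted p = 0.00547). In these 3 genes no GA3 library reached the level of a mock library.

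COR47 rose, from 2228 and 2332 normalized reads to 3003 and 3131 (log2 0.43 ± 0.05, limma adjusted p = 1.41e-05). ERD10 rose from 481 and 551 to 630 and 568 (log2 0.23 ± 0.08, limma adjusted p = 0.043), a change called in only 4 of the 8 other limma settings. It was lost without the deeper mock library (log2 0.13, adjusted p = 0.362) and without the deeper GA3 library (log2 0.14, adjusted p = 0.257), and the KIN2 call was lost without the latter too (adjusted p = 0.0668). ERD14 (log2 -0.07 ± 0.04, adjusted p = 0.215) and KIN1 (log2 -0.44 ± 0.17, adjusted p = 0.0562) did not pass. Of 8 members 6 were called, where 35.4% of 19644 genes were called, 17.2% higher and 18.3% lower, and the median log2 change was -0.38 beside 0.01 over all genes. The authors' deposited table called 2 members, RD29A (adjusted p = 0.0122) and RD29B (adjusted p = 0.0199), where it called 13.3% of genes, and gave COR47 an adjusted p of 0.291.

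RAB18 rested on 1 library. It had 283 and 234 normalized reads with mock and 212 and 57.7 with GA3 (log2 -1.09 ± 0.33, limma adjusted p = 0.0196). Without the shallower GA3 library the log2 change was -0.28 (adjusted p = 0.0764), and without the deeper one it was -2.15; without the deeper mock library it was -0.96 (adjusted p = 0.127). The 2 GA3 libraries were 1.86 apart on the log2 scale for RAB18, and 59 of 19583 genes were farther apart. CBF1 (4.75), MYB15 (2.73), CBF2 (2.65), LEA (2.51) and EM1 (2.36) were also higher in the deeper library of that pair, and the seed reserve sum was 6217 against 3742. The other 7 tested members differed by at most 0.15 between these libraries. All 10 seed reserve markers fell with GA3, and the seed reserve sum with mock was 22028 and 19598. Of 7 root markers 1 fell, IRT1, and of 3 guard cell markers KAT1 rose and MYB60 fell. The authors' DESeq test called neither the fall of IRT1 nor that of MYB60 (DESeq adjusted p = 0.183 and 0.351). The part of any of these genes in the members' changes was not tested.

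**Figure D3:**
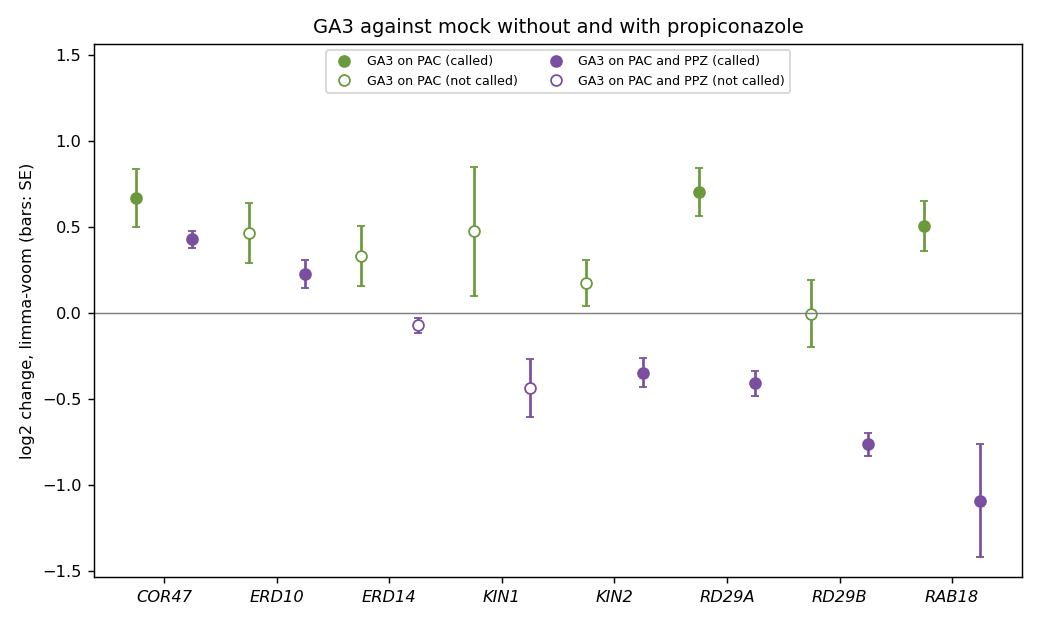
Log2 change with GA3 against mock (vertical axis) of the 8 tested members (horizontal axis), without PPZ in green and with PPZ in purple; bars are standard errors and filled points passed an adjusted p of 0.05. RD29A is at 0.70 without PPZ and at -0.41 with it, while COR47 is above 0 in both.

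Whether GA3 acted differently with PPZ was tested by the interaction over the 8 wild-type libraries. RD29A was the 1 member called of 8, where 3.21% of 19519 genes were called, 1.60% higher and 1.61% lower. Its GA3 change was 1.12 ± 0.16 log2 units lower with PPZ than without (log2 -1.12, limma adjusted p = 0.00555), since it rose without PPZ and fell with it. This call held in all 12 other settings, with values from -1.27 to -0.88. Of 7 root markers CASP1 was also called lower in the interaction (log2 -0.91 ± 0.19), and its part in the RD29A value was not tested. The other 7 differences were also below 0 and did not pass: RAB18 at -1.61 ± 0.51, KIN1 at -0.93 ± 0.41, RD29B at -0.78 ± 0.24, KIN2 at -0.51 ± 0.16, ERD14 at -0.41 ± 0.19, ERD10 at -0.26 ± 0.23 and COR47 at -0.25 ± 0.18. The members' median was -0.65, beside 0.0045 over all genes. Without the shallower library on PAC 7 members were called, and KIN2 was the 1 not called. KIN2 was the second call without the deeper library on PAC, and RAB18 was without the deeper library of GA3 on PAC and PPZ.

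The genes above the members in the cold and ABA routes were counted from lists of known components, some of which were chosen with earlier results of these data in view. Counts in this and the following lists stand beside these shares of all tested genes, higher and lower. They were 11.6% and 12.1% with PPZ on PAC, and 24.2% and 22.9% in bzr1-1D on PAC and PPZ. With GA3 they were 15.9% and 16.6% on PAC, 17.2% and 18.3% on PAC and PPZ, and 1.60% and 1.61% in the interaction. The CBF factors, which bind the CRT/DRE element, were low. CBF1 had 0 to 33 reads per library and CBF3 had 0 to 2, and both stayed below the test minimum. CBF2 had 8 to 29 reads in 9 libraries and 97 in the deeper library of GA3 on PAC and PPZ, and passed the test in no comparison. In bzr1-1D on PAC and PPZ, 1 of 9 tested cold factors rose, SCRM2 (log2 0.75 ± 0.11), a relative of ICE1, and ICE1 itself, an activator of CBF genes, fell by 0.35 ± 0.10. With PPZ on PAC, 1 of 8 rose, the zinc finger gene ZAT12 (log2 2.08 ± 0.37).

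ABA synthesis was represented by NCED3, the enzyme of its rate-limiting step under drought. NCED3 had 45.0 and 26.2 normalized reads on PAC and 124 and 113 with GA3, a log2 rise of 1.68 ± 0.26 (limma adjusted p = 0.000853). It was also higher in bzr1-1D on PAC and PPZ, at 135 and 151 against 77.1 and 43.2 normalized reads (log2 1.29 ± 0.22, limma adjusted p = 0.000445), and with GA3 beside PPZ (log2 0.77 ± 0.23). The authors' DESeq test did not call the rise with GA3 beside PPZ (DESeq adjusted p = 0.0536). PPZ on PAC gave a log2 change of 0.63 ± 0.36 that did not pass (limma adjusted p = 0.24). Of ABA synthesis genes, 1 of 5 rose with GA3 on PAC and 2 of 6 in bzr1-1D on PAC and PPZ, beside 15.9% and 24.2% of all genes. Of the ABA hydroxylases, CYP707A1 fell by 1.18 ± 0.11 with GA3 on PAC and by 0.60 ± 0.09 in bzr1-1D, and CYP707A3 rose by 0.77 ± 0.20 and 0.42 ± 0.14. The authors' DESeq test also called both falls of CYP707A1, but neither rise of CYP707A3 (DESeq adjusted p = 0.615 and 0.819).

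The PP2C phosphatases inhibit ABA signalling and are themselves induced by ABA. Of 7 tested, 4 rose with GA3 on PAC: HAI1 (log2 1.34 ± 0.28), ABI2 (1.17 ± 0.18), PP2CA (0.99 ± 0.14) and ABI1 (0.90 ± 0.10). The same 4 rose in bzr1-1D on PAC and PPZ, of 9 tested, by 1.44 ± 0.18, 0.56 ± 0.12, 0.86 ± 0.10 and 0.52 ± 0.07. With PPZ on PAC 3 of 9 rose, HAI2 (1.48 ± 0.28), AHG1 (1.35 ± 0.35) and HAI1 (1.28 ± 0.30). With GA3 on PAC and PPZ 3 of 9 fell, AHG1 (-1.36 ± 0.36), HAI3 (-1.14 ± 0.38) and HAI2 (-0.93 ± 0.20), and 1 rose. The authors' DESeq test called none of these 3 falls (DESeq adjusted p = 0.130, 0.127 and 0.084). Levels were low, as AHG1 had 19 and 7 reads and HAI3 16 and 8 reads in the GA3 libraries. By the interaction test, 3 had a GA3 change that was lower with PPZ: HAI1 (-1.53 ± 0.35), ABI2 (-1.03 ± 0.21) and ABI1 (-0.75 ± 0.10).

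Among the 7 ABA transcription factors tested, ABF3, an ABRE-binding factor, had 3231 and 2887 normalized reads on PAC and 5198 and 5714 with GA3. It rose by 0.85 ± 0.12 with GA3 on PAC and by 0.91 ± 0.07 in bzr1-1D on PAC and PPZ, and it fell by 0.43 ± 0.10 with PPZ on PAC. With GA3 on PAC and PPZ it rose by 0.15 ± 0.05, and its interaction was -0.68 ± 0.12. The authors' DESeq test did not call that rise (DESeq adjusted p = 0.383). ABF3 thus moved in the direction of the acidic dehydrins with PPZ and in bzr1-1D, and a link between them was not tested. In bzr1-1D 4 of the 7 rose, ABI5 (0.61 ± 0.11) and the seed factor ABI3 (0.41 ± 0.14) among them. With PPZ on PAC ABI3 rose (1.11 ± 0.25). Of the SnRK2 kinases 2 of 3 rose in bzr1-1D, SNRK2.2 (0.38 ± 0.07) and OST1 (0.25 ± 0.08), and 1 of 3 rose with GA3 on PAC, OST1 (0.34 ± 0.12). Of 8 ABA receptors, 1 rose (PYL9, 0.49 ± 0.10) and 2 fell in bzr1-1D, PYL2 (-1.0 ± 0.31) and PYL5 (-0.34 ± 0.08). With GA3 on PAC 2 fell, PYL6 (-1.11 ± 0.28) and PYL5 (-0.36 ± 0.12). In bzr1-1D, the authors' DESeq test did not call ABI3, OST1 or PYL2 (DESeq adjusted p = 0.248, 0.0937 and 0.0681).

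Other known cold and ABA targets moved in both directions. In bzr1-1D on PAC and PPZ 11 of 19 rose and 3 fell, led by the lipid transfer protein genes LTP4 (log2 4.42 ± 0.27) and LTP3 (2.78 ± 0.13) and by GOLS2, a galactinol synthase (2.62 ± 0.28). LTP4 went from 21.2 and 22.9 to 428 and 539 normalized reads. With PPZ on PAC 8 of 19 rose and 5 fell, led by RD20, a caleosin (1.41 ± 0.18), RCI2B, a small membrane protein (-1.41 ± 0.17), and ADH1, alcohol dehydrogenase (1.32 ± 0.13). With GA3 on PAC 7 of 19 rose and 4 fell, led by EM1 (-3.15 ± 0.43), COR413IM1 (2.62 ± 0.17) and EM6 (-1.69 ± 0.39). EM1 and EM6 are late-embryogenesis genes of the seed, and COR413IM1 encodes a chloroplast membrane protein. With GA3 on PAC and PPZ 4 rose and 7 fell. In the interaction test COR413IM1 (-1.96 ± 0.26), RD20 (-1.59 ± 0.29) and COR413IM2 (-0.81 ± 0.19) were called lower.

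Dehydrins outside the member list were counted as well. With PPZ on PAC 2 of 4 tested rose, LTI30 (1.84 ± 0.27) and LEA (1.15 ± 0.20). In bzr1-1D on PAC and PPZ 1 of 5 was called, LEA, which fell by 0.71 ± 0.16, but the authors' DESeq test did not call it (DESeq adjusted p = 0.527). With GA3 on PAC 3 of 5 fell, LEA (-2.0 ± 0.40), XERO1 (-1.75 ± 0.40) and HIRD11 (-0.79 ± 0.14). The authors' DESeq test did not call this fall of LEA (DESeq adjusted p = 0.0521). LEA and XERO1 were at low levels, as with LEA at 52.2 and 68.1 normalized reads on PAC. With GA3 on PAC and PPZ 3 of 5 fell and 1 rose, AT4G38410 (DESeq 4.04-fold, adjusted p = 0.000471). DESeq called HIRD11 lower there (adjusted p = 0.00547), but not LTI30, XERO1 or LEA (adjusted p = 0.373, 0.179 and 0.153). With PPZ beside GA3, 4 of 5 rose and 0 fell, beside 26.2% and 25.7% of all genes. Of 8 tested members 1 rose and 6 fell in that comparison. The reads of HIRD11 could not be recovered in bzr1-1D, and the authors' deposited table gives it an adjusted p of 0.319 there.

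**Figure D4:**
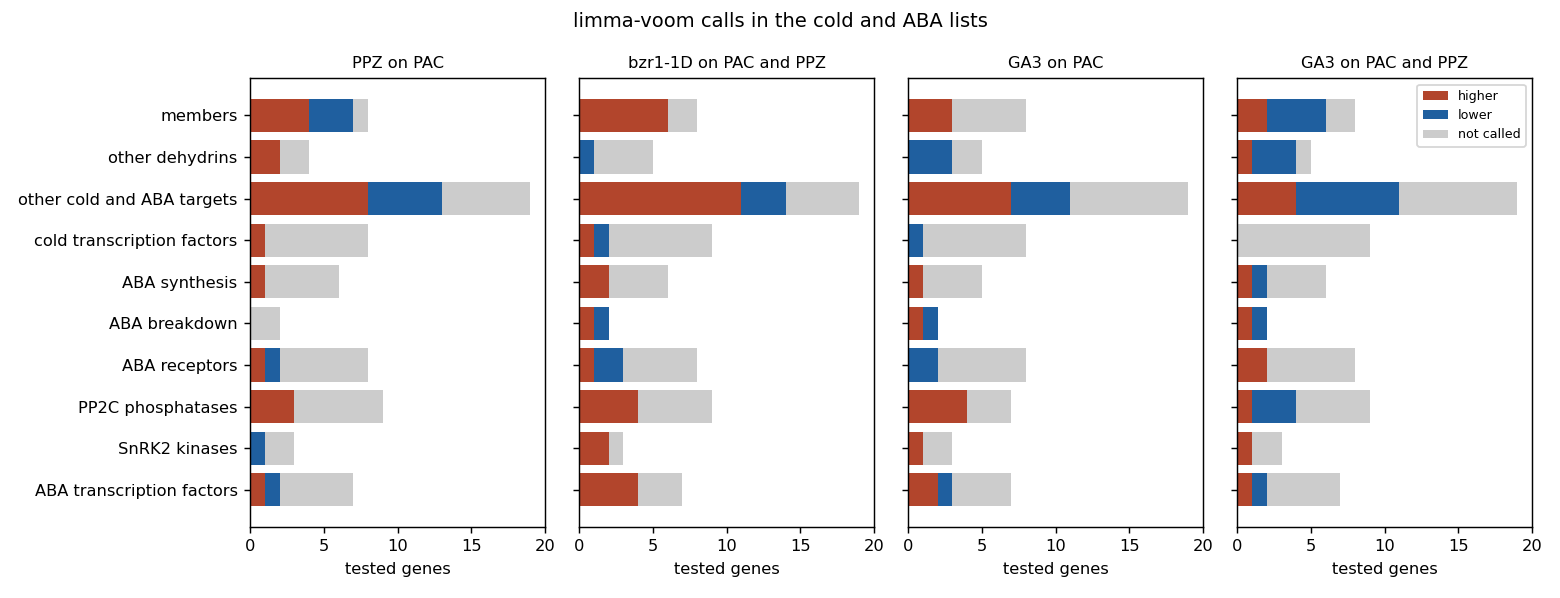
Number of tested genes (horizontal axis) called higher, lower or not called by limma-voom in each list of cold and ABA genes (vertical axis), in 4 comparisons. The members have 4 higher and 3 lower with PPZ on PAC and 6 higher and 0 lower in bzr1-1D. Over all tested genes 11.6% were higher and 12.1% lower with PPZ on PAC, and 24.2% and 22.9% in bzr1-1D.

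Members were also ranked by the likeness of their levels across the 5 groups, as the root mean square difference of centred log2 group means. ERD10 and ERD14, which lie at different places on chromosome 1, were nearest to each other at 0.12, with 6 other genes nearer to ERD10 and 8 to ERD14. COR47 was nearest to ERD10 at 0.34, with 99 other genes nearer to COR47. RD29A and RD29B, which are neighbours, were nearest to each other at 0.26, with 47 other genes nearer to RD29A and 50 to RD29B. RAB18 and KIN2 were each other's nearest member at 0.23, with 11 other genes nearer to RAB18 but 1954 nearer to KIN2. KIN1 was nearest to RD29B at 0.38, with 391 other genes nearer to KIN1. KIN1 and KIN2 are neighbours as well, but neither was the other's nearest member. The 5 genes nearest to the mean profile of the 8 members, of 16424 ranked, were CPK29 (0.083), CNGC13 (0.093), FH8 (0.095), AT5G67340 (0.10) and AT3G27250 (0.10). These distances describe 5 group means and carry no test.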

How the data were processed

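The authors deposited 3 tables, 1 per comparison, from TopHat and DESeq per the submitters' processing notes; their versions, the genome build and how reads were assigned to genes were not given in the sources used here. From their names and the steps their values follow, the authors' signal columns were taken as group means of size-factor-normalized reads. Per the file headers, the p-value columns deposited give a raw and an adjusted p, and the fold column deposited is a fold change. Its values are the ratio of 2 group means. The 5 rows without a gene in each deposited file were dropped; the one for multiply aligned reads held 8.61 to 10.7% of a group's total. No column holds 1 library, so whole reads per library were recovered from the 2 step sizes that low group means follow. Recovery succeeded for 99.6 to 100% of genes with a mean above 0 and for all members. Where several whole-number solutions existed, only those with libraries within a log2 difference of 3, or failing that 1.5, were kept. That rule bounds the spread between libraries that such genes can show. Each group's 2 recovered libraries are named by depth, deeper and shallower, because no label could be matched to either. Reads were scaled together by median-ratio size factors over all 10 libraries (normalized reads), and library totals of 8080550 to 16546607 reads set the precision.

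The recovered reads were tested with limma-voom (limma 3.58.1, R 4.3.3) on the groups compared, over every gene that averaged 10 or more normalized reads, and called at a Benjamini-Hochberg adjusted p under 0.05. Recovery and fits were tested on simulated data. Exon lengths, motifs and coordinates came from RefSeq TAIR10.1 by locus identifier, and 32709 of the 33518 identifiers matched a RefSeq symbol table; the build of the deposited tables is not named. Members, lists and tests were chosen with earlier results of these data known. Named beyond the members were, per list and comparison, up to 3 called genes of largest change, with CBF1 to CBF3, ABI1, ABF3 and NCED3 always; the promoter match shown per member was chosen after the sequences were seen. Alternatives were a filter of 1 normalized read, total-read scaling, limma with trend on log2(normalized reads + 1), 1 fit over all 10 libraries, the authors' DESeq calls and leaving out each library.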

Additional observations from a re-analysis of the deposited data

Results flagged for a closer look

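The GA3 response of RD29A differed between the 2 backgrounds by a test of the difference itself. Its log2 change with GA3 was 1.12 ± 0.16 log2 units lower with PPZ than without (log2 difference -1.12, limma-voom interaction over 8 wild-type libraries, adjusted p = 0.00555). RD29A was higher with GA3 in 2 of 2 libraries without PPZ and lower in 2 of 2 with PPZ, against both mock libraries.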

How the results depend on the processing

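Of the values for single members under other settings, 440 kept their direction and their side of the threshold, 37 lost the call, 19 gained it and 8 changed sign. The count of members called moved by over 1.5 times in 2 kinds of setting. The authors' DESeq test called 2 with GA3 on PAC and PPZ, against 6 by limma-voom. Leaving out 1 library at a time gave 1 to 6 with GA3 on PAC, against 3, and 1 to 7 in the interaction, against 1; the 6 and the 7 came without the shallower library on PAC, the 1 with GA3 on PAC without either GA3 library. Over all genes these refits called 2771 to 8774 with GA3 on PAC, against 6238, and 60 to 2740 in the interaction, against 627. The sign changed for values that had not passed the test: RD29B with GA3 on PAC (0.016 in the fit over all 10 libraries, and -0.42 to 0.35 leaving out 1 library), KIN1 with GA3 on PAC (-0.20 to 0.88 leaving out 1), RAB18 in bzr1-1D (-0.0062 to 0.26 leaving out 1), KIN2 with PPZ on PAC (0.0098 with total-read scaling, -0.21 to 0.12 leaving out 1), RD29B with PPZ beside GA3 (0.083 with total-read scaling) and ERD10 in the interaction (-0.56 to 0.084 leaving out 1). The cause was not tested. The fit over all 10 libraries ended the calls of RAB18 with GA3 on PAC (adjusted p = 0.275), with PPZ on PAC (0.213) and in bzr1-1D against wild type on PAC (0.109), of ERD10 (0.372) and KIN2 (0.0503) with GA3 on PAC and PPZ, and of KIN1 with PPZ beside GA3 (0.0621); it added ERD10 with GA3 on PAC (0.0275), and COR47 (0.0414) and KIN2 (0.0191) in bzr1-1D against wild type on PAC. The log2(normalized reads + 1) scale ended those of RD29B with PPZ on PAC (0.0612), ERD10 with GA3 on PAC and PPZ (0.0522) and ERD14 in bzr1-1D against wild type on PAC (0.0721). Where a refit left 1 library in a group, that library was assumed to vary like the others. No paired analysis was possible because the deposited columns are group means, and the recovered libraries carry no replicate number. Separate cultures are not mentioned for the samples of a group, so p-values cover only the spread between its libraries, possibly a technical one. Depth limits COR15A, COR15B, CBF1 and CBF3, whose counts were too low for a test.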
